A study of Mus musculus with 7 samples.

Results

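The nuclear genes of the mitochondrial respiratory chain were followed in CD4+ T cells of 3 kinds of mice on 7 Affymetrix arrays. A gene was a member if its annotated symbol began with Ndufa, Ndufb, Ndufc, Ndufs or Ndufv, with Sdha to Sdhd, with Uqcr, with Cox4 to Cox8 or with Atp5, pseudogenes apart. Membership thus followed names, but the rule was chosen with earlier results of these data known. By this rule 94 of 18193 genes were members. They comprised 34 structural subunits of complex I, 4 of complex II, 8 of complex III, 18 of complex IV and 17 of complex V, and 13 assembly factors and other proteins. Of the 94, 88 were bright enough to be tested. Cox7b, a subunit of complex IV, was not analysed here, nor were 6 symbols found only on probe sets that name several genes.

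The respiratory chain passes electrons from NADH (complex I) and succinate (complex II) through coenzyme Q, complex III and cytochrome c to oxygen at complex IV. Complexes I, III and IV pump protons across the inner mitochondrial membrane, and complex V, the ATP synthase, uses their return to make ATP. Most subunits are encoded in the nucleus and imported, and a few are encoded by mitochondrial DNA. In T cells the chain supports quiescent and memory cells as well as proliferating ones, and regulatory T cells are known for a high reliance on it. NRF1, GABP (an ETS family factor) and YY1 are textbook activators of these genes.

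Peripheral lymph nodes (axillary, brachial, inguinal, cervical and facial) of male mice were taken at an age of 3 weeks. Their cells were depleted of those bearing B220, CD8, CD11b, CD11c or NK1.1 and then sorted by CD3 and CD4. The B6 group (C57BL/6, wild type) was 1 array of RNA from 2 pooled mice, with no replicate. The Sf group (scurfy, B6.Cg-Foxp3sf/J, which carry a mutation of the transcription factor gene Foxp3 and lack functional regulatory T cells) was 3 arrays, named here Sf 1, Sf 2 and Sf 3. The Sf.Il2-/- group (scurfy mice that also carry the null allele Il2tm1Hor of the interleukin-2 gene) was 3 arrays, so Sf and Sf.Il2-/- share the Foxp3 mutation. Both mutations are carried by all cells of the mice, and the B6 lymph nodes hold regulatory T cells that the mutants lack. The labels call the arrays of a group biological replicates. The probe set of Foxp3 read 7.25 in B6, 5.87 to 6.32 in Sf and 4.20 to 4.41 in Sf.Il2-/-. Sf and Sf.Il2-/- share the Foxp3 mutation and yet differed here, so this level does not check that allele. The probe set of Il2 read 5.22 in B6, 5.39, 5.09 and 7.35 in the Sf arrays and 7.17 to 8.20 in Sf.Il2-/-, so it was not lower in the arrays labelled as the null. Which part of Il2 the probe set covers is not given in the sources used here, so it does not check the allele, and the genotypes rest on the labels. In bulk RNA such as this, fewer cells of a type and less RNA per cell cannot be told apart.

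Values are the authors' deposited intensities as log2(intensity + 1), with the brightest probe set that names a gene alone standing for it. The arrays differed at the bright end of the deposited values, and this touches every result below. Whether this came from the scaling or from the cells was not tested. Median intensity was 29.3 to 32.4, but the intensity at the 99th percentile of probe sets was 3129 in B6, 2188, 1802 and 2550 in Sf 1 to 3, and 2912, 2593 and 2694 in Sf.Il2-/- 1 to 3. Not every bright list differed in this way. The 42 cytosolic ribosomal proteins (median log2 value 12.75 in B6) had median differences from B6 of 0.04 to 0.11 in the mutant arrays as deposited. Most members are bright, 66 of 88 having a mean log2 value of 9 or more, as had 2255 of the 11460 genes tested. Differences are therefore given on the deposited scale, after quantile normalization, which gives all arrays the same distribution, and beside those 2255 genes. From correlation over dim probe sets, and not from the labels, the arrays also fell into 2 array sets, set 2 being B6 with Sf 3 and Sf.Il2-/- 3 and set 1 the other 4. The sets touch, since the lowest correlation within a set was 0.553 and the highest between sets 0.554.

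The sorted cell type was checked against its markers. The 6 of 9 listed CD4+ T cell markers that were measured (Cd3d, Cd3e, Cd3g, Cd4, Cd5 and Cd28) lay between 9.44 and 11.85 in log2 value in every array. The summed intensity of the 6 was 15880 in B6, 8209 to 11320 in Sf and 12960 to 14690 in Sf.Il2-/-, so it was lowest in Sf, where most members also read lowest, and highest in B6. The defining B cell marker Cd79a lay between 4.25 and 4.99, the myeloid marker Itgam between 1.02 and 4.19 and the natural killer marker Ncr1 between 2.14 and 3.12. Other markers of these lists were brighter. Of those measured, 2 of 5 for B cells, 4 of 6 for myeloid cells and 1 of 3 for natural killer cells were tested. The myeloid list summed to 804 in B6, 793, 669 and 477 in Sf 1 to 3 and 837, 969 and 423 in Sf.Il2-/- 1 to 3. The neutrophil transcript S100a8 read 6.37 in Sf 1 and 7.63 in Sf.Il2-/- 2, while the other arrays lay between 2.53 and 4.10, and the neutrophil list summed to 243 and 412 in those arrays against 83.3 to 106 in the others. Summed intensity was 87.2 to 160 for the B cell list, 146 to 312 for CD8+ T cells, 423 to 969 for myeloid cells, 72.5 to 137 for dendritic cells, 804 to 1718 for plasma cells (mostly Xbp1), 7.28 to 56.8 for erythroid cells and 161 to 464 for stroma. The natural killer list, carried by Eomes, which T cells also express, ranged from 136 in B6 to 970 in Sf.Il2-/- 3. The part of these markers in the member differences was not tested. The median member difference between Sf.Il2-/- and Sf was 0.39 (log2) without Sf 1 and Sf.Il2-/- 2, against 0.35 with them.

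Promoters of the members were searched, for description alone, for letters of the activators named above. RefSeq (GRCm38.p6) gave promoters for 78 of the 94 member genes, 83 windows in all that run from 250 bases before to 50 after the start. The windows below are the 120 bases before the start, 5′ to 3′ on the gene's strand, of 6 members from complexes I, II, IV and V that were picked because they hold matches. Of the 39 such windows of named members, 9 hold a match. Capitals mark matches on either strand to GCGCATGCG (NRF1), to the NRF1 half-site TGCGCA, which can overlap it, and to CCGGAAG (ETS, CTTCCGG on the opposite strand).
Ndufs3 (chr2:90904722-90904841, minus strand): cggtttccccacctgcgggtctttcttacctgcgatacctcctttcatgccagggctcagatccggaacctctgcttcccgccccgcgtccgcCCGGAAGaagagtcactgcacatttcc
Sdha (chr13:74350241-74350360, minus strand): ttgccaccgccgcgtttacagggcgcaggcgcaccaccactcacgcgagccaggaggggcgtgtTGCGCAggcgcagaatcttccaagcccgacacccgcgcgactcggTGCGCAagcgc
Sdhd (chr9:50603850-50603969, minus strand): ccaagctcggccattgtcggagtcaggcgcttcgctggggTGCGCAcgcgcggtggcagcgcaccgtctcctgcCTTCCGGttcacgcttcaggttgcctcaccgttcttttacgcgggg
Cox5b (chr1:36691367-36691486, plus strand): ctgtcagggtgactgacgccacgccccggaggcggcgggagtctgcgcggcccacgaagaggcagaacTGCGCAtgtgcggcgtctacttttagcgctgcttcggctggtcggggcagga
Cox6a1 (chr5:115348959-115349078, minus strand): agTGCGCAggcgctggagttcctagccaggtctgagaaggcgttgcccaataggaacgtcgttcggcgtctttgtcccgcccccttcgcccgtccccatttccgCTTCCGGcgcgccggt
Atp5g2 (chr15:102671048-102671167, minus strand): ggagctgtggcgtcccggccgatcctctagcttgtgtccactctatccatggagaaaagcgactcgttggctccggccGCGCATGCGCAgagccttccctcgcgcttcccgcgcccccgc

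The Atp5g2 window holds the NRF1 letters on both strands, and those of Cox6a1 and Sdhd hold the half-site together with an ETS match. Over the whole windows, GCGCATGCG was found in 9 of 83 member promoters (10.8%) against 1.75% of all 32851 promoters. The half-site TGCGCA was in 21 (25.3%) against 7.76%, and CCGGAAG in 22 (26.5%) against 8.86%. The letters AAGATGG, the YY1 core, were in 11 (13.3%) against 6.34%. Of the NRF1, half-site and ETS letters, 39 member promoters (47.0%) held at least 1, against 15.8% of all promoters. These matches describe letters in a window, and the data hold no measurement of binding.

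The members moved as a block from array to array. On the deposited scale Sf 2 was the lowest array for 70 of 88 members, Sf.Il2-/- 1 was the highest for 30 and Sf.Il2-/- 3 for 29. The median difference of the 88 members from the B6 array was -0.33 in Sf 1, -0.57 in Sf 2 and 0.01 in Sf 3. For Sf.Il2-/- 1, 2 and 3 it was 0.13, 0.00 and 0.14. Sf 3 thus read near B6 and the Sf.Il2-/- arrays, and Sf 1 and Sf 2 below them. The bright genes as a whole followed the same course at a lower level, with -0.57, -0.79 and -0.24 in the Sf arrays and -0.22, -0.28 and -0.20 in Sf.Il2-/-. After quantile normalization the member medians were 0.29, 0.25 and 0.24 in the Sf arrays and 0.36, 0.33 and 0.39 in Sf.Il2-/-, while those of the bright genes lay between -0.02 and 0.04. Every mutant array then stood above B6, and Sf 2 (0.25) read level with Sf 3 (0.24). Around their group means the members spread by a median SD of 0.24 over the mutant arrays, against 0.25 for bright genes and 0.29 for all genes tested.

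**Figure D1:**
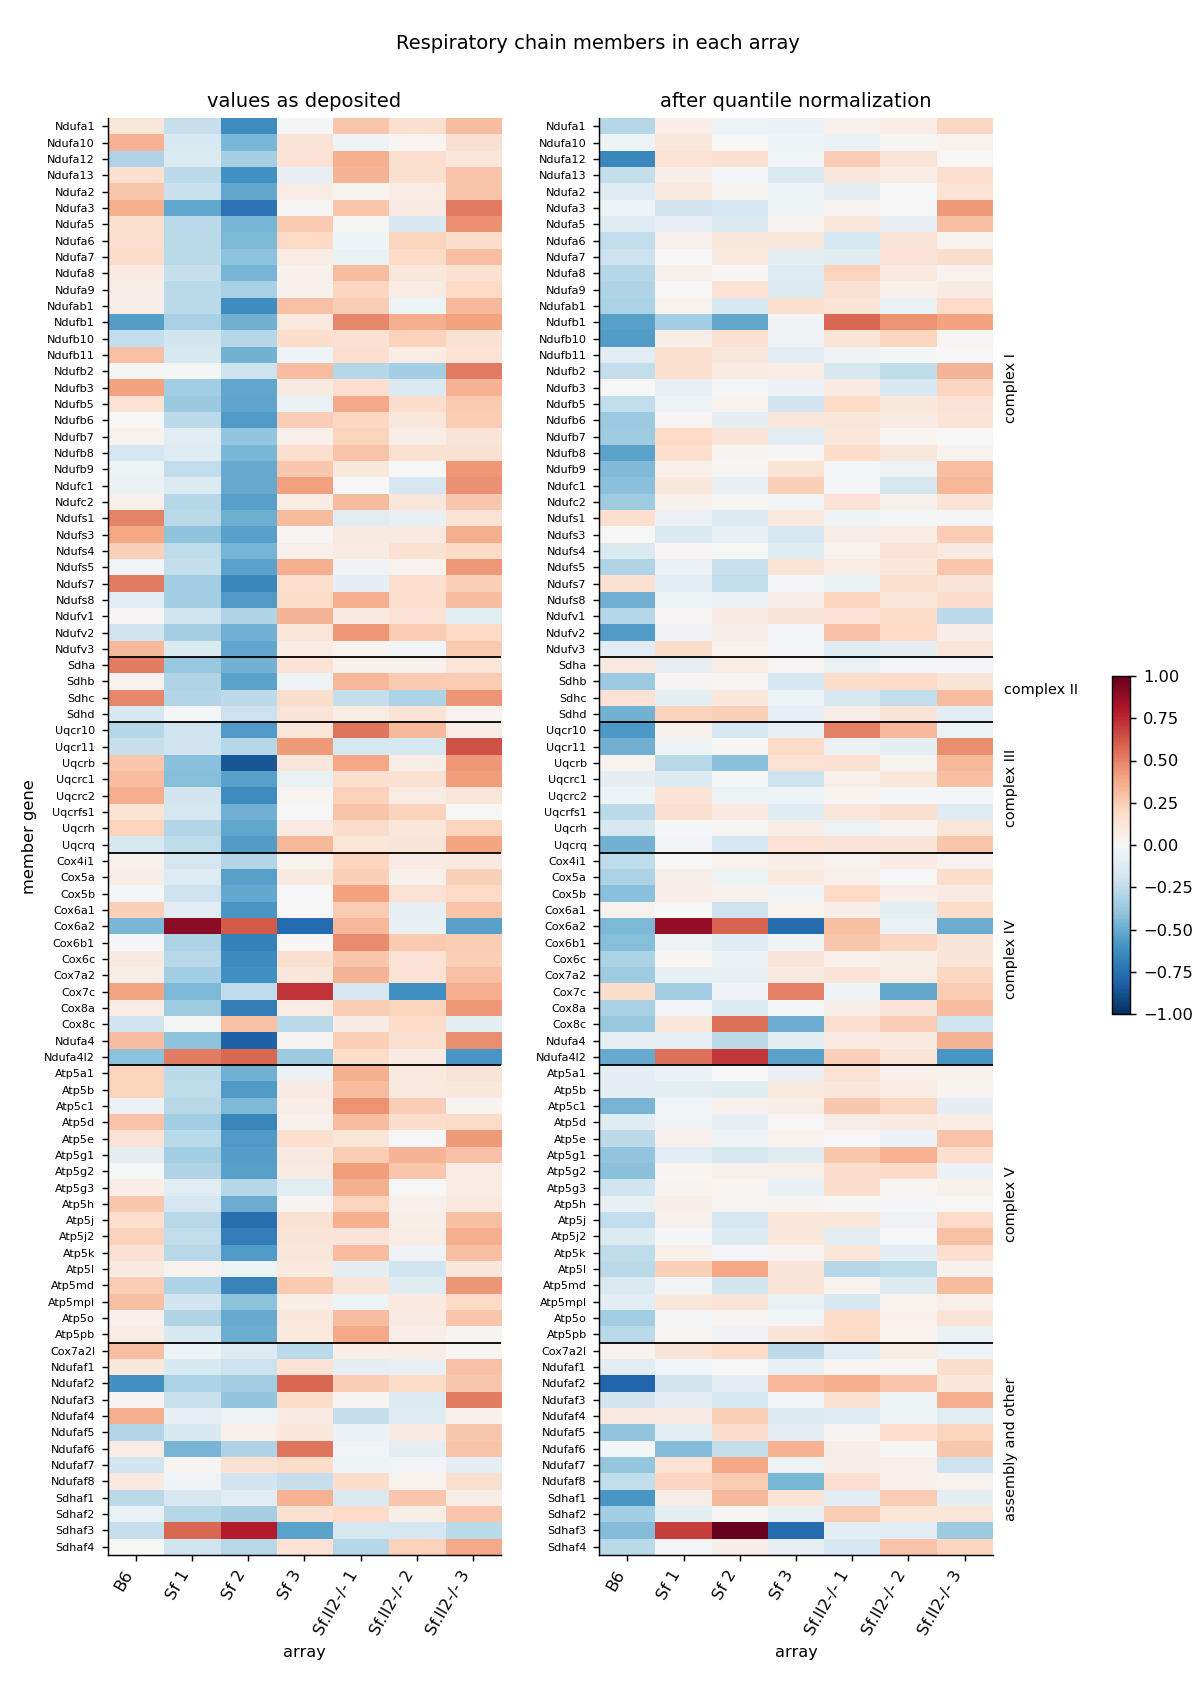
Heat map of the 88 tested members (rows, grouped by complex) in the 7 arrays (columns), coloured by log2 value minus the gene's mean over the arrays, as deposited on the left and after quantile normalization on the right. The blue columns Sf 1 and Sf 2 on the left (Sf 2 lowest for 70 of 88 members) fade on the right, where the B6 column is blue.

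Setting Sf.Il2-/- against Sf addresses the effect of losing interleukin-2 on a Foxp3-mutant background. On the deposited scale 80 of 88 members were higher in Sf.Il2-/- (90.9%), where 62.2% of all genes tested and 87.9% of bright genes were higher, and the median difference was 0.35 against 0.08 for all genes and 0.28 for bright genes. In 31 members (35.2%) all Sf.Il2-/- arrays lay above all Sf arrays, as in 8.39% of genes and in 500 of the 2255 bright genes, and in 1 member, Ndufaf7, they all lay below (1.14%), as in 3.72%. No member passed limma's test at an adjusted p of 0.05 (lowest 0.376), where 0.279% of genes did. At an unadjusted p under 0.05, 28 members were higher and 0 lower (31.8%, against 7.92% of genes in either direction). Of the 2255 bright genes, 409 were higher and 17 lower at that p. After quantile normalization 64 members were higher (72.7%, against 55.2%), the median fell to 0.08 and 0 members passed, where 0.288% of genes did, with 8 at an unadjusted p under 0.05 (9.09%, against 8.7%). Relative to the bright genes the median of the 88 members was 0.08 on the deposited scale and 0.07 after quantile normalization. For the 66 bright members alone it was 0.11 and 0.08. The bright genes thus showed most of the deposited difference too. The summed CD4+ T cell markers were also lower in every Sf array (at most 11320) than in every Sf.Il2-/- array (at least 12960), and their part in the result was not tested.

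The count of members past the threshold changed with Sf 3. Without it, limma called 29 members higher and 1, Sdhaf3, lower, where 7.45% of genes passed. Within array set 1 alone, which leaves 2 arrays a group, it called 15 higher and 1 lower, where 4.98% passed, and the median member difference was 0.48. Within set 2, which has 1 array of each group, the median was 0.16 and 68 of 88 members were higher, as were 49.6% of all genes. After quantile normalization the median was 0.06 (57 of 88 higher) within set 1 and 0.14 (68 of 88 higher) within set 2, so the difference was no longer larger in set 1. Without Sf 2 the median member difference over the remaining arrays was 0.21. With the replicate block no member passed, where 0.524% of genes did.

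Complex I, the NADH dehydrogenase, gave 32 of 33 tested subunits higher in Sf.Il2-/- than in Sf on the deposited scale, with a median of 0.35, and 24 of 33 with a median of 0.09 after quantile normalization. Ndufa3, an accessory subunit, read 10.37, 10.15 and 10.91 in the Sf arrays and 11.17, 10.98 and 11.42 in Sf.Il2-/-. The groups did not overlap, and they differed by 0.71 ± 0.21 (log2 ± SE with 3 arrays each; limma adjusted p = 0.412). Ndufa13 and Ndufb5, both accessory subunits, were 0.58 ± 0.17 and 0.59 ± 0.18 higher (limma adjusted p = 0.402 and 0.395). After quantile normalization the differences of Ndufa3, Ndufa13 and Ndufb5 were 0.28, 0.15 and 0.21. Among the core subunits, Ndufv2 was 0.53 ± 0.20 higher, Ndufs8 0.52 ± 0.22, Ndufs3 0.49 ± 0.21 and Ndufs7 0.38. Ndufv1, which binds NADH, differed by 0.10 ± 0.22 and Ndufs1, the largest iron-sulfur subunit, by 0.13 ± 0.24. Ndufb1, a small accessory subunit, read 5.26 in B6, 5.48, 5.33 and 5.91 in the Sf arrays and 6.29, 6.17 and 6.21 in Sf.Il2-/-. Its difference from Sf hardly moved with the scale, at 0.65 ± 0.22 as deposited and 0.77 after quantile normalization (limma adjusted p = 0.475 and 0.281). It was 0.82 within array set 1 and 0.30 within set 2, and its values lie near the limit of 5 below which genes were not tested.

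In complexes II and III, which deliver electrons to and from coenzyme Q, all 4 and all 8 members read higher in Sf.Il2-/- than in Sf as deposited. Their medians were 0.21 and 0.41, and after quantile normalization -0.02 (1 of 4 higher) and 0.12 (7 of 8 higher). Sdhb, the iron-sulfur subunit of succinate dehydrogenase, read 10.36 in B6, 10.03, 9.79 and 10.28 in the Sf arrays, and 10.66, 10.59 and 10.59 in Sf.Il2-/-. Its groups did not overlap, with a difference of 0.58 ± 0.18 (limma adjusted p = 0.423) that was 0.21 after quantile normalization. Its partners Sdhc and Sdhd, which anchor the enzyme in the membrane, differed by 0.09 ± 0.26 and 0.12 ± 0.19. The second probe set of Sdhd differed by 0.48 and that of Sdhc by 0.07, so the value of Sdhd depended on the probe set. In complex III, Uqcrb, a subunit at the quinone site, read 11.28, 10.84 and 11.80 in the Sf arrays and 12.08, 11.76 and 12.13 in Sf.Il2-/-, which overlap. Uqcrc1, a core protein, read 9.67, 9.55 and 10.03 in the Sf arrays and 10.25, 10.25 and 10.52 in Sf.Il2-/-, which do not. Their differences were 0.69 ± 0.23 and 0.59 ± 0.19 (limma adjusted p = 0.432 and 0.430), and 0.36 and 0.28 after quantile normalization. Uqcrfs1, the Rieske iron-sulfur protein, differed by 0.38 ± 0.18 as deposited and 0.01 after quantile normalization.

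In complex IV, cytochrome c oxidase, 10 of 13 tested members read higher on either scale, with medians of 0.38 as deposited and 0.05 after quantile normalization, and it held the member with the lowest p of this comparison. Cox6b1, a subunit on the cytochrome c side, read 11.08 in B6, 10.78, 10.41 and 11.10 in the Sf arrays, and 11.57, 11.35 and 11.34 in Sf.Il2-/-. All Sf.Il2-/- arrays lay above all others, with a difference from Sf of 0.65 ± 0.19 (limma adjusted p = 0.376, unadjusted p = 0.00632). After quantile normalization it was 0.27, and 0.86 and 0.24 within array sets 1 and 2. The core nuclear subunits Cox4i1, Cox5a and Cox5b differed by 0.27 ± 0.13, 0.37 ± 0.18 and 0.49 ± 0.17 as deposited and by 0.02, 0.04 and 0.09 after quantile normalization. Ndufa4, a subunit of complex IV despite its name, was 0.68 ± 0.22 higher as deposited and 0.32 after quantile normalization.

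Complex V gave 16 of 17 members higher in Sf.Il2-/- than in Sf as deposited, with the highest median of the complexes, 0.44, and 14 of 17 with a median of 0.09 after quantile normalization. The catalytic head subunits Atp5a1 (alpha), Atp5b (beta) and Atp5c1 (gamma) were 0.46 ± 0.15, 0.42 ± 0.18 and 0.46 ± 0.18 higher. Of the 3 genes for the identical subunit c of the rotor ring, Atp5g1 read 8.85, 8.64 and 9.27 in the Sf arrays and 9.44, 9.53 and 9.48 in Sf.Il2-/-, with no overlap and a difference of 0.56 ± 0.21 (limma adjusted p = 0.536). Atp5g2 and Atp5g3 differed by 0.51 ± 0.19 and 0.31 ± 0.14. After quantile normalization Atp5g1 was 0.39 higher, and Atp5g2 and Atp5g3 0.07 and 0.09. The exception as deposited was Atp5l, named after its values were seen, subunit g of the membrane part, which read 11.24 in B6, 11.18, 11.10 and 11.24 in the Sf arrays and 11.06, 10.94 and 11.26 in Sf.Il2-/-. Its values spanned 10.94 to 11.26. Its difference was -0.09 ± 0.14 as deposited and -0.42 after quantile normalization (limma adjusted p = 0.951 and 0.291).

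**Figure D2:**
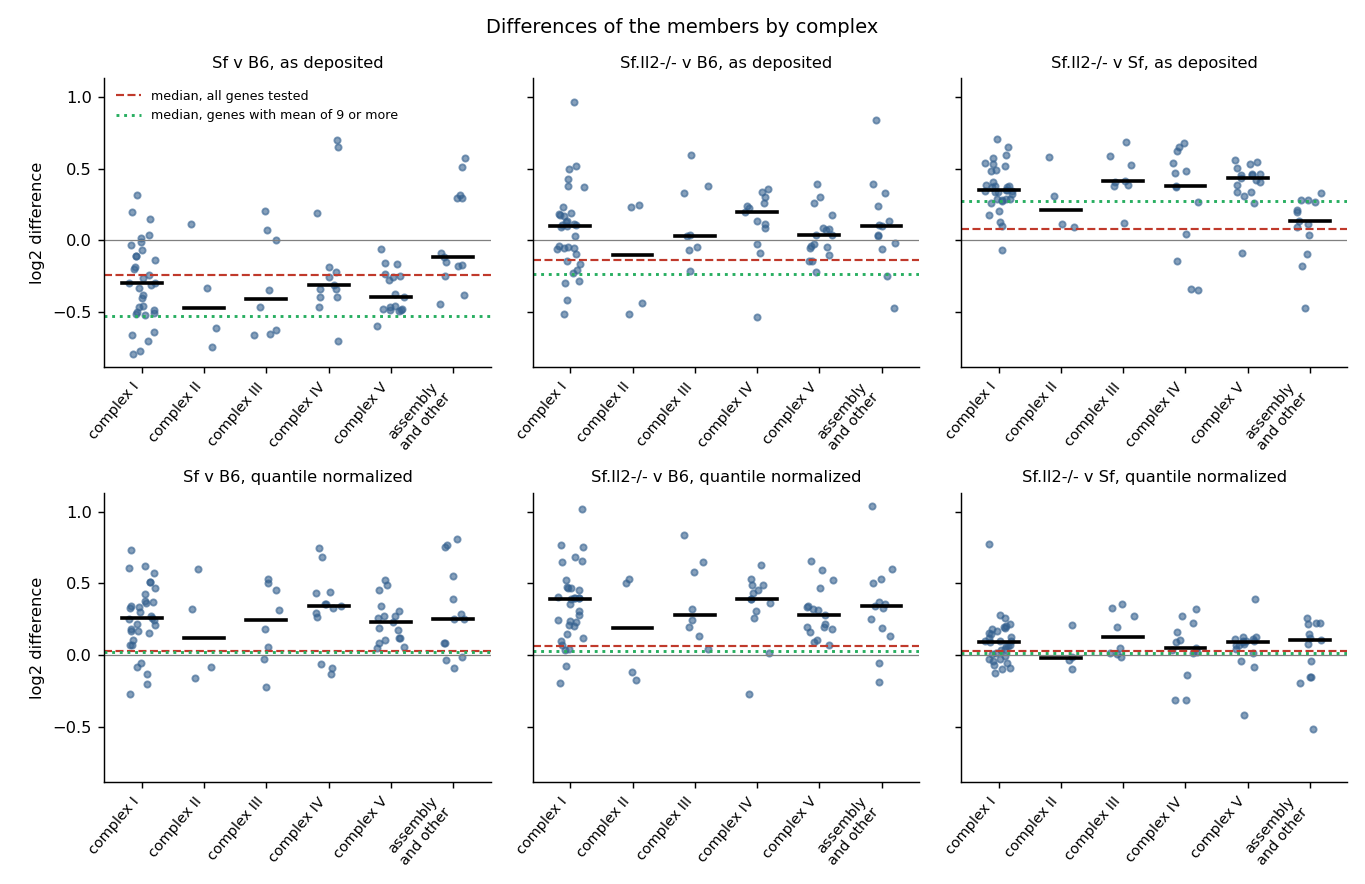
Log2 difference of each tested member (points) by complex in the 3 comparisons, as deposited above and after quantile normalization below, with the median of the complex as a black bar and dashed and dotted lines at the medians of all genes tested and of genes with a mean of 9 or more. In Sf.Il2-/- v Sf the deposited medians of complexes I to V (0.21 to 0.44) lie above 0, and after quantile normalization they lie between -0.02 and 0.12.

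Of the 13 assembly factors and other proteins, 10 were higher in Sf.Il2-/- than in Sf as deposited, with a median of 0.14. Sdhaf3, which helps mature the iron-sulfur subunit of complex II, ran the other way. It read 6.95 in B6, 7.76, 7.97 and 6.64 in the Sf arrays and 7.01, 7.01 and 6.91 in Sf.Il2-/-. It was thus high in Sf 1 and Sf 2 and lowest in Sf 3, and the difference of -0.48 ± 0.32 (limma adjusted p = 0.820) was -0.85 within array set 1 and 0.27 within set 2. Ndufaf7, a methyltransferase that acts on complex I and was named after its values were seen, was the member whose Sf.Il2-/- arrays all lay below Sf, at 7.37, 7.38 and 7.31 against 7.44, 7.56 and 7.59, a difference of -0.18 ± 0.18 (limma adjusted p = 0.896). Its groups overlapped after quantile normalization.

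Setting Sf against B6 compares Foxp3-mutant with wild-type mice, and rests on 1 B6 array that is assumed to vary like the others. The mutation within the sorted cells and the lack of regulatory T cells in the mice cannot be told apart here. Sf 1 and Sf 2 are also of array set 1, while B6 is of set 2. The direction of the Sf v B6 difference for the members depended on the scale. As deposited 17 of 88 members were higher in Sf (19.3%, against 34.7% of all genes tested) and 71 lower, with a median of -0.30 against -0.25 for all genes and -0.53 for bright genes. Without Sf 2 the member median was -0.17, and with the array set as a block it was -0.12 (32 of 88 higher). In 39 members (44.3%) all Sf arrays lay below B6, as in 46.9% of genes, and in 6 (6.82%) all lay above, as in 19.6%. No member passed limma's test (lowest adjusted p 0.161), where 2.47% of genes did, and 7 had an unadjusted p under 0.05, all lower (7.95%, against 22.5%). After quantile normalization 73 of 88 members were higher (against 52.1% of genes), the median was 0.27, and 2 rose, Ndufa12 and Ndufb8, where 4.83% of genes passed. At an unadjusted p under 0.05, 29 members were then higher and 0 lower, where 20.6% of genes had such a p. Of the 2255 bright genes, 410 were then higher and 326 lower at that p. Relative to the bright genes the median of the 88 members was higher on either scale, by 0.23 as deposited and 0.25 after quantile normalization. For the 66 bright members alone it was higher by 0.19 and 0.25. By count, 10.61% of these 66 were higher in Sf as deposited, against 15.34% of the bright genes. After quantile normalization the shares were 84.85% and 52.15%. By complex the deposited medians were -0.30 for I (5 of 33 higher), -0.47 for II (1 of 4), -0.41 for III (3 of 8), -0.31 for IV (3 of 13), -0.40 for V (0 of 17) and -0.12 for assembly factors and others (5 of 13). After quantile normalization they were 0.26 (28 higher), 0.12 (2), 0.25 (6), 0.35 (10), 0.23 (17) and 0.25 (10), so the sign turned in every complex. Within array set 2, Sf 3 differed from B6 by a median of 0.01 over the 88 members, which was 0.25 above the bright genes. The median of the 66 bright members alone was 0.21 above them.

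Without Sf 3, limma called 24 members lower and 2 higher, Cox6a2 and Sdhaf3, in Sf against B6, where 30.6% of all genes passed. The members' share (26 of 88) thus lay near the background, and the member median was -0.45. Both remaining Sf arrays are of array set 1 and B6 is of set 2, so genotype and array set cannot be told apart here. With the replicate block, 1 member, Ndufa4l2, rose, where 16.4% of genes passed. That fit puts B6, labelled replicate 1, in a block with Sf 1 and Sf.Il2-/- 1, which are of the other array set. Ndufa4l2 read higher in set 1 than in set 2 whatever the genotype, so its rise cannot be told apart from the array set.

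Named members differed in how far they followed the scale. Sdha, the flavoprotein that oxidises succinate, read 10.78 in B6, 9.89, 9.80 and 10.41 in the Sf arrays, and 10.32, 10.32 and 10.39 in Sf.Il2-/-. All 6 mutant arrays lay below B6, and the Sf difference of -0.75 ± 0.28 (log2 ± SE, 3 arrays against 1; limma adjusted p = 0.161) was -0.09 after quantile normalization. Ndufs7, whose iron-sulfur cluster hands electrons to coenzyme Q, read 9.93 in B6, 9.06, 8.77 and 9.58 in the Sf arrays, and 9.32, 9.58 and 9.65 in Sf.Il2-/-. Its Sf difference of -0.79 ± 0.34 (limma adjusted p = 0.206) was -0.27 after quantile normalization. Ndufs1 and Sdhc were also below B6 on either scale, at -0.64 and -0.61 as deposited and -0.20 and -0.16 after quantile normalization. Ndufs3, Uqcrc1 and Ndufa3 were lower as deposited (-0.70, -0.65 and -0.77), with adjusted p of 0.198, 0.196 and 0.180 by limma, and near B6 after quantile normalization (-0.14, -0.03 and -0.08). These members are among the 15 that were not above B6 after quantile normalization.

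Some members had means above B6 in both mutants, and passed the test only on the quantile scale. Ndufa12, an accessory subunit of complex I, read 9.51 in B6, 9.68, 9.48 and 9.95 in the Sf arrays, and 10.17, 9.98 and 9.93 in Sf.Il2-/-. As deposited it was 0.19 ± 0.27 above B6 in Sf and 0.52 ± 0.27 above in Sf.Il2-/-. After quantile normalization it was 0.73 and 0.77 above, which passed limma's test (adjusted p = 0.0375 and 0.0284). Ndufb8, an accessory subunit in the membrane arm, was 0.04 ± 0.29 and 0.37 ± 0.29 above B6 as deposited, and 0.60 and 0.65 after quantile normalization (limma adjusted p = 0.0468 and 0.0332).

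**Figure D3:**
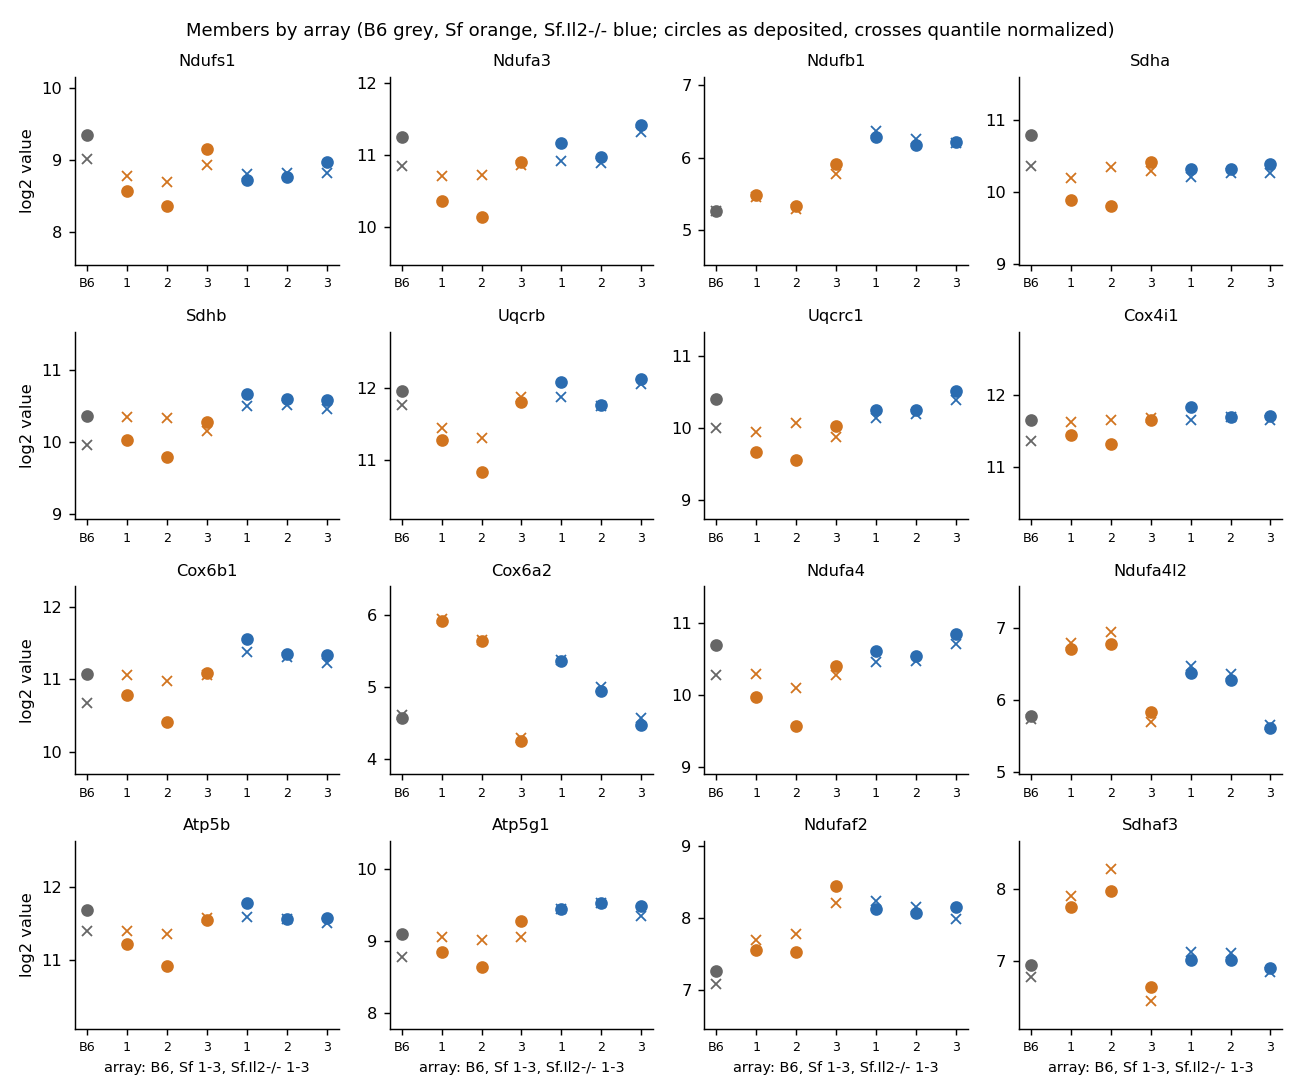
Log2 values of 16 members by array (B6 grey, Sf orange, Sf.Il2-/- blue), as deposited (circles) and after quantile normalization (crosses), with every panel spanning the same height. Cox6b1 and Sdhb show a dip of Sf 1 and Sf 2 as deposited that is smaller or gone on the quantile scale, Ndufb1 and Ndufaf2 stand above B6 on both scales in Sf.Il2-/-, and Sdhaf3 is high in Sf 1 and Sf 2 alone.

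The comparison of Sf.Il2-/- with B6 covers both mutations together and shares the B6 array with the one above, so the 2 are not independent. As deposited 54 of 88 members were higher in Sf.Il2-/- (61.4%, against 39.7% of all genes tested) and 34 lower, with a median of 0.08 against -0.14 for all genes and -0.23 for bright genes. In 35 members (39.8%) all Sf.Il2-/- arrays lay above B6, as in 24.7% of genes, and in 16 (18.2%) all lay below, as in 44.5%. No member passed limma's test (lowest adjusted p 0.158), where 2.69% of genes did, and 1 had an unadjusted p under 0.05 (1.14%, against 18.6%). After quantile normalization 81 members were higher (92.0%, against 55.1%), with a median of 0.34. Then 9 members rose and 0 fell, where 6.37% of genes passed. At an unadjusted p under 0.05, 38 members were higher and 0 lower on that scale, where 22.5% of genes had such a p. Of the 2255 bright genes, 464 were higher and 335 lower at that p. With the array set as a block 72 of 88 members were higher on the deposited scale, with a median of 0.26. Leaving out Sf.Il2-/- 2 or Sf.Il2-/- 3 moved the deposited median to 0.14 or 0.05. Relative to the bright genes the median of the 88 members was 0.32 as deposited and 0.31 after quantile normalization. For the 66 bright members alone it was 0.31 and 0.30. The deposited medians were 0.10 for complex I (19 of 33 higher), -0.10 for II (2 of 4), 0.03 for III (5 of 8), 0.20 for IV (10 of 13), 0.04 for V (9 of 17) and 0.10 for assembly factors and others (9 of 13). After quantile normalization they were 0.39 (31 higher), 0.19 (2), 0.28 (8), 0.39 (12), 0.28 (17) and 0.34 (11), so only the sign of complex II turned. Without Sf 3, which enters only through the shared spread, 2 members rose on the deposited scale, Ndufaf2 and Ndufb1, where 13.6% of genes passed. With the replicate block 0 members passed, where 10.6% of genes did.

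The 9 members that rose after quantile normalization were of complexes I (Ndufa12, Ndufb8, Ndufb10, Ndufs8 and Ndufv2), IV (Cox5b and Cox6b1) and V (Atp5g1), and the assembly factor Ndufaf2. Ndufv2, a core iron-sulfur subunit, was 0.50 ± 0.28 above B6 as deposited and 0.75 after quantile normalization (limma adjusted p = 0.0205). Ndufs8, another, was 0.38 ± 0.31 and 0.65 above (limma adjusted p = 0.0249 on the second scale). Cox6b1 was 0.34 ± 0.27 and 0.63 above (adjusted p = 0.0181), and Cox5b 0.26 ± 0.24 and 0.53 above (adjusted p = 0.0333). Atp5g1 was 0.39 ± 0.30 and 0.66 above (limma adjusted p = 0.0379). Ndufaf2, an assembly factor of complex I, read 7.28 in B6, 7.56, 7.53 and 8.45 in the Sf arrays and 8.13, 8.07 and 8.15 in Sf.Il2-/-. Every mutant array was above B6, by 0.84 ± 0.38 in Sf.Il2-/- as deposited (adjusted p = 0.271) and 1.04 after quantile normalization (adjusted p = 0.0448). Within array set 2 it was 1.18 above B6 in Sf 3 and 0.88 in Sf.Il2-/- 3. Ndufb1 was 0.97 ± 0.32 above B6 in Sf.Il2-/- (adjusted p = 0.158) and 1.02 after quantile normalization (adjusted p = 0.0785), and 0.96 within set 2. At the other end Ndufaf4, an assembly factor of complex I, was 0.47 ± 0.27 below B6 in Sf.Il2-/- (adjusted p = 0.389) and 0.19 below after quantile normalization. Its second probe set also read 8.29 in B6 and gave larger deposited differences from it. They were -0.98 in Sf.Il2-/- and -1.01 in Sf, against -0.47 and -0.38 at the one used.

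Several subunits of complex IV come as tissue isoforms. The ubiquitous forms Cox4i1, Cox6a1, Cox6b1, Cox7a2 and Cox8a were all bright. Cox4i1, for example, read 11.66 in B6, 11.45, 11.32 and 11.65 in the Sf arrays and 11.83, 11.69 and 11.71 in Sf.Il2-/-. Cox4i2, Cox6b2, Cox7a1, Cox7b2 and Cox8b, the forms of lung, testis or muscle, did not reach a group mean of 5 and were not tested, and neither was Ndufb4 of complex I. Their log2 values lay between 2.65 and 5.21 in all arrays. Cox8c, a testis form, lay between 7.10 and 7.66 in all arrays. Cox6a2, the form of heart and skeletal muscle, read 4.57 in B6, 5.92, 5.64 and 4.25 in the Sf arrays and 5.36, 4.94 and 4.48 in Sf.Il2-/-. Ndufa4l2, a relative of Ndufa4 known as a target of the hypoxia-inducible factor, read 5.79 in B6, 6.71, 6.77 and 5.83 in the Sf arrays and 6.38, 6.28 and 5.61 in Sf.Il2-/-. In both, the arrays of set 1 read higher than those of set 2, whatever the genotype, and the same held on the quantile scale. Cox7a2l, which joins complexes III and IV into supercomplexes, was below B6 in all 6 mutant arrays, by 0.45 ± 0.18 in Sf and 0.25 ± 0.18 in Sf.Il2-/- (limma adjusted p = 0.182 and 0.489), and within 0.06 of B6 in both after quantile normalization. Cox7c, an accessory subunit, spread widely within groups, at 6.89, 7.09 and 8.07 in the Sf arrays and 7.18, 6.73 and 7.71 in Sf.Il2-/-, against 7.75 in B6.

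Other genes of mitochondrial energy metabolism were followed in lists. No gene of these lists passed limma's test as deposited in any comparison, and 0 to 5 genes of each list had an unadjusted p under 0.05. Of all genes tested, 22.5% had such a p in Sf v B6, 18.6% in Sf.Il2-/- v B6 and 7.92% in Sf.Il2-/- v Sf. The 76 mitochondrial ribosomal proteins, which make the subunits encoded by mitochondrial DNA, had medians of -0.16 in Sf v B6, 0.07 in Sf.Il2-/- v B6 and 0.23 in Sf.Il2-/- v Sf as deposited. After quantile normalization these were 0.19, 0.30 and 0.12, close to the members' values, with 3 and 6 genes higher than in B6 past the threshold in Sf and Sf.Il2-/-, where 4.83% and 6.37% of all genes passed. Mrps6 and Mrps16, proteins of the small mitochondrial subunit, rose by 0.82 and 0.72 in Sf (limma adjusted p = 0.0252 and 0.0403). The 17 genes of pyruvate dehydrogenase and the TCA cycle, which feed the chain with NADH and succinate, had deposited medians of -0.47 (2 of 17 higher), -0.22 (4 of 17) and 0.29 (17 of 17). The quantile medians were -0.02, 0.07 and 0.11, and on either scale the medians against B6 lay below those of the members. Of these, Fh1, fumarase, rose in Sf.Il2-/- against B6 after quantile normalization (0.80; limma adjusted p = 0.0379).

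Among electron carriers and coenzyme Q synthesis (19 genes), the deposited medians were -0.22, -0.03 and 0.14 and the quantile medians 0.10, 0.15 and 0.05, so the sign against B6 turned with the scale. Cycs, cytochrome c, read 10.94 in B6, 10.66, 10.39 and 11.10 in the Sf arrays and 11.09, 11.02 and 11.09 in Sf.Il2-/-, and rose in Sf on the quantile scale (0.49; limma adjusted p = 0.0494). Etfb, a subunit of the flavoprotein that brings electrons from fatty acid oxidation, rose by 1.18 and 1.11 in Sf and Sf.Il2-/- on that scale (limma adjusted p = 0.00944 and 0.0124). Of 16 carriers, channels and antioxidant genes, Slc25a4, an ADP/ATP carrier, read 9.96 in B6, 10.33, 10.17 and 10.80 in the Sf arrays and 10.85, 10.74 and 10.66 in Sf.Il2-/-. All 6 mutant arrays lay above B6 as deposited, and on the quantile scale it rose by 1.14 and 1.03 (limma adjusted p = 0.00278 and 0.00370). Of 35 separate assembly factors, 1, Tmem126a of complex I assembly, rose in Sf.Il2-/- on the quantile scale (0.87, limma adjusted p = 0.0352), where 6.37% of all genes passed.

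The 12 tested glycolysis genes had deposited medians of 0.04 in Sf and 0.21 in Sf.Il2-/- against B6, and 0.48 and 0.47 after quantile normalization. On the quantile scale 4 and 2 were past the threshold, all higher, where 4.83% and 6.37% of all genes passed. The triose phosphate isomerase gene Tpi1 rose by 1.89 and 1.46 and the lactate dehydrogenase gene Ldha by 0.50 and 0.53 on that scale (limma adjusted p = 0.0209 and 0.0429 for Tpi1, 0.0278 and 0.0228 for Ldha). The 42 cytosolic ribosomal proteins had medians between 0.01 and 0.08 as deposited and between -0.03 and 0.05 after quantile normalization. The members and the mitochondrial ribosomal proteins thus had medians against B6 between those of glycolysis and the cytosolic ribosome on the quantile scale.

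**Figure D4:**
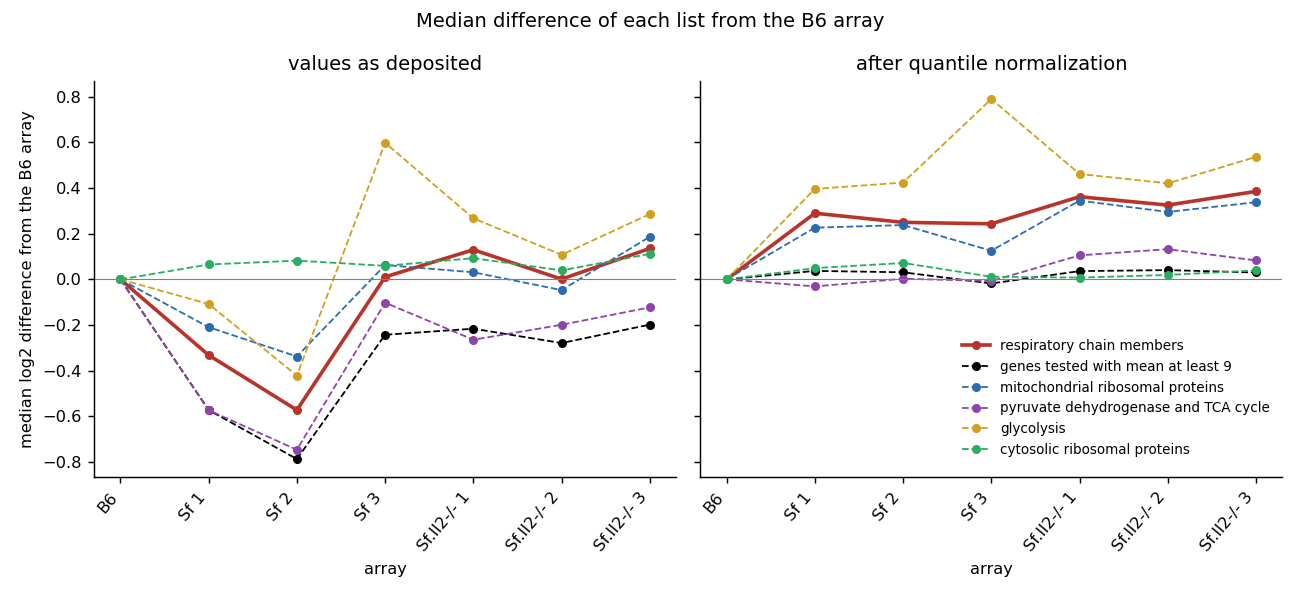
Median log2 difference from the B6 array over each gene list in every array, as deposited on the left and after quantile normalization on the right. The respiratory chain members (red) lie above the genes with a mean of 9 or more (black) in all 6 mutant arrays on both scales, and near the mitochondrial ribosomal proteins (blue).

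Genes of mitochondrial biogenesis regulation and of mitochondrial DNA maintenance, followed as 1 list, read lower by median than the members in both mutants. The 21 tested genes of this list had medians of -0.55 in Sf and -0.45 in Sf.Il2-/- against B6 as deposited and -0.15 and -0.18 after quantile normalization, with 0 past limma's threshold on either scale. The bright genes had medians of -0.53 and -0.23 as deposited and 0.02 and 0.03 after quantile normalization. Ppargc1b, a coactivator of respiratory genes, read 8.0 in B6, 6.93, 6.48 and 7.49 in the Sf arrays and 6.78, 6.45 and 6.66 in Sf.Il2-/-. All 6 mutant arrays lay below B6, by 1.38 ± 0.37 in Sf.Il2-/- as deposited (limma adjusted p = 0.0946) and 1.09 on the quantile scale (adjusted p = 0.0676). Its relative Ppargc1a lay between 3.21 and 4.14 and was not tested. Myc, a growth regulator that drives mitochondrial genes in activated T cells, read 9.21 in B6, 8.42, 8.15 and 9.08 in the Sf arrays and 7.88, 8.44 and 8.54 in Sf.Il2-/- (limma adjusted p = 0.350 and 0.265 against B6). Tfam, which packages and transcribes mitochondrial DNA, differed from B6 by -0.28 and -0.14 as deposited and 0.20 and 0.17 on the quantile scale. The factors whose letters were searched in the promoters did not pass the test. Nrf1 differed from B6 by -0.08 and -0.26 as deposited and 0.11 and -0.04 on the quantile scale, and Gabpa by -0.47 and -0.44 and by 0.00 and -0.12. Yy1, named because its letters were searched, differed by -0.82 and -0.45 as deposited and -0.15 and -0.20 on the quantile scale. Esrra, an orphan receptor that acts with these coactivators, differed by -0.17 and -0.32 and by 0.02 and -0.10.

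Where a gene had further probe sets the member values were checked against them. Of 78 other bright probe sets of 50 member genes, 9 had the opposite sign in Sf.Il2-/- v Sf, 18 in Sf v B6 and 24 in Sf.Il2-/- v B6. The 3 other bright probe sets of Cox5b were 0.60 to 0.62 higher in Sf.Il2-/- than in Sf, against 0.49 at the one used, and the other of Cox6b1 was 0.50 higher. The second probe set of Ndufs7 gave -0.37 in Sf v B6 against -0.79, and that of Uqcrb gave -0.10 against -0.66.

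**Figure D5:**
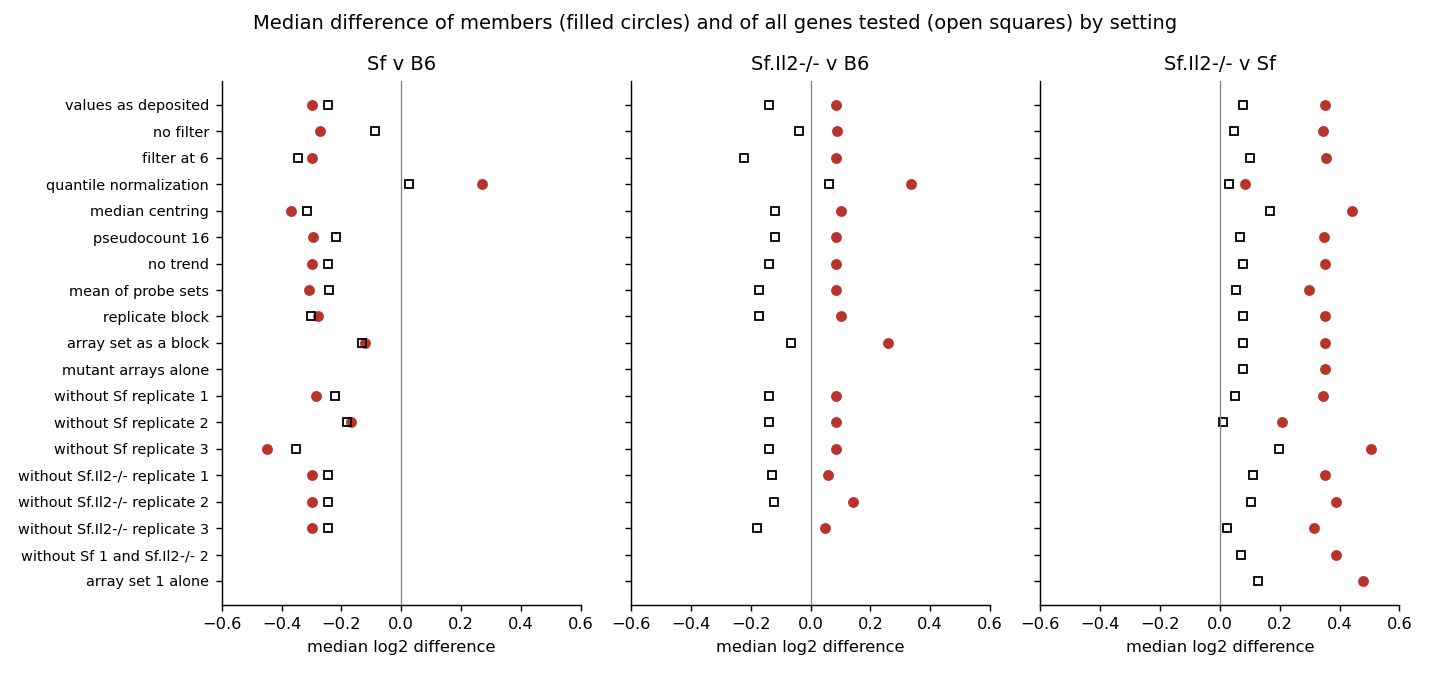
Median log2 difference of the members (filled circles) and of all genes tested (open squares) in the 3 comparisons (panels) under each setting (rows). In Sf.Il2-/- v Sf the members lie above 0 and above all genes in every row, at 0.08 after quantile normalization, while in Sf v B6 quantile normalization moves them from -0.30 to 0.27.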

How the data were processed

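The values were deposited by the authors as linear intensities for 45037 probe sets on 7 arrays, made with GCRMA and GCOS per the submitters' processing notes, which give no version. For this report they were taken as log2(intensity + 1). Of the probe sets, 34945 name 1 gene, and the brightest of these stood for each of 18193 genes. Genes with a highest group mean of at least 5 were tested (11460). R 4.3.3 and limma 3.58.1 (lmFit, eBayes with trend) fitted 3 group means over all 7 arrays (4 residual degrees of freedom), with Benjamini-Hochberg adjustment over all genes tested at 0.05. The single B6 array is assumed to vary like the mutants. P-values measure the spread between these arrays, and their number limits precision.

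Same-numbered arrays of Sf and Sf.Il2-/- deviated together (correlations 0.30, 0.21 and 0.50 for numbers 1, 2 and 3), so a fit with the number as a block is given where it changes a count. The B6 array bears number 1 and so shares a block with Sf 1 and Sf.Il2-/- 1, by its label alone. Members and lists were chosen with earlier results of these data known. Named members are those past the threshold or, where fewer than 6 passed, the 6 with the lowest unadjusted p per comparison, core subunits, isoform sets, the brightest of each complex and the 3 with the widest spread. Of the other lists, genes past the threshold (up to 4 per comparison by p) and Tfam, Nrf1, Gabpa, Ppargc1a, Ppargc1b, Esrra and Myc were named. Members and list genes past the threshold after quantile normalization were added after their values were seen, as were the 3 comparisons beside bright genes, array set 1 alone and the fit without the arrays rich in neutrophil transcripts. Alternatives changed the filter, pseudocount, scaling, trend, probe set rule and blocks and left out each mutant array. Promoters are those of RefSeq GRCm38.p6. Figures were drawn with matplotlib 3.10.9.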

Additional observations from a re-analysis of the deposited data

How the results depend on the processing

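The direction of the member median in Sf v B6 depended on the scaling, and the counts of members past the threshold on the scaling and on Sf 3; the cause was not tested. Over all genes limma called 283, 308 and 32 genes in Sf v B6, Sf.Il2-/- v B6 and Sf.Il2-/- v Sf, and the member median minus that of all genes was -0.0528, 0.2224 and 0.2747. In that order, no filter gave 161, 138 and 11 genes and, in Sf v B6, a relative median of -0.1816, while a filter at 6 gave 0.0444 there. Quantile normalization gave 554 and 730 genes and 2 and 9 members against B6, with relative medians of 0.2429 in Sf v B6 and 0.0525 in Sf.Il2-/- v Sf. The mean of probe sets gave 188 genes in Sf v B6. The replicate block gave 1880, 1212 and 60 genes, 1 member in Sf v B6 and a relative median of 0.0228 there, and changed no other member count. The array set as a block gave 605, 721 and 74 genes, 1 member (Ndufb1) in Sf.Il2-/- v B6, and a relative median of 0.0099 in Sf v B6. In Sf.Il2-/- v Sf, leaving out Sf 1 and Sf.Il2-/- 2 gave 52 genes, and array set 1 alone 571 genes and 16 members. Beside genes with a mean of at least 9 the relative median of the 88 members was 0.2311 in Sf v B6 and 0.0762 in Sf.Il2-/- v Sf. For the 66 members with such a mean it was 0.1859 and 0.1095. Leaving out 1 mutant array at a time gave 118 to 3509, 129 to 1560 and 8 to 854 genes, 0 to 26, 0 to 2 and 0 to 30 members, and relative medians of -0.0957 to 0.0137, 0.1883 to 0.2635 and 0.1951 to 0.3081. The highest counts all came without Sf 3. Of 147 differences of named genes, 59 changed sign under at least 1 setting. Genes under a log2 value of 5 are near background.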
